A study of Mus musculus with 4 samples.

Results

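Splenic T cells of control mice taken 4 days after sheep red blood cells were compared with T cells of unimmunized control mice. Sheep red blood cells are a particulate antigen that is given to start a germinal center response in the spleen. The cells came from the T cell library of a single-cell RNA study of the spleen that has 1 further library, made from B cells. Each library pooled 4 populations marked by hashtag antibodies, which were control day 0, control day 4, knockout (KO) day 0 and KO day 4. All mice were C57BL/6NRj. The labels give the same genotype, with floxed Il2rb (Il2rbfl/fl) and a Cre, for both control and KO mice, so control and KO were read from the hashtag names, in which the control is called Cre. The Cre acts in B cells, and T cells are not the cells in which it deletes Il2rb, the beta chain of the interleukin-2 and interleukin-15 receptors. Day 4 mice had been given the sheep red blood cells into the peritoneal cavity. The labels do not say how many mice made up a pool. They name a kit for naive CD4+ T cells, so shares describe the cells that passed it.

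A T cell had at least 200 genes, under 10% mitochondrial UMIs, a leading hashtag of at least 10 UMIs and 3 times the next, Cd3e with a UMI and Cd79a at 0. A UMI is a unique molecular identifier, which marks 1 captured RNA molecule. The rule kept 7713 of the 9307 barcodes of the library, and the whole series holds 15646. Of these cells, 1977 carried the control day 4 hashtag and 912 the control day 0 hashtag. They held 13298182 and 4325459 UMIs in all, with medians of 5715 and 4566 UMIs per cell. As a check of the label of CD4 T cells, Cd4 stood at 281 UMIs per 1000000 (CPM) at day 4 and 277 at day 0. Cd8a had 3 and 0 UMIs, but 27 and 11 cells fell in a gate asking for Cd8a or Cd8b1 and no Cd4. Ms4a1, a B cell marker, had 0 UMIs in both pools. Cd79b, another B cell marker, had 52 UMIs at day 4 and 7 at day 0, in 2.33% and 0.768% of cells. The T and B libraries shared 84 barcodes, 72 of them among the T cells used. Each side is 1 pool with no replicate, so no difference was tested, and ranges in parentheses are 95% intervals that cover counting error only. Day and pool cannot be told apart in any value here.

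Naive CD4 T cells recirculate through spleen and lymph nodes with Ccr7 and S1pr1 on their surface, kept quiescent by transcription factors such as Lef1, Klf2 and Foxo1. After antigen on dendritic cells engages the T cell receptor, they divide, and some become follicular helper (Tfh) cells under Bcl6. Tfh cells carry Cxcr5 and Pdcd1, enter B cell follicles, and give interleukin-21, interleukin-4 and Cd40lg to germinal center B cells. Regulatory T cells, defined by Foxp3, limit such responses.

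Tfh-gated and dividing cells made up a larger part of the day 4 pool, and naive-gated cells a smaller part. Cells were gated on UMIs of marker genes in a fixed order. The Tfh gate asked for at least 2 of Cxcr5, Bcl6, Pdcd1, Il21, Tox2, Ascl2, Sostdc1 and Pou2af1. It held 6 of 912 cells at day 0 (0.658%, 0.242 to 1.43%) and 141 of 1977 at day 4 (7.13%, 6.04 to 8.36%), a ratio of 10.8 (4.86 to 30.0). The intervals of the shares do not overlap. Since a deeper cell is more likely to show a marker, each cell was also thinned to 2000 UMIs, which left out 11 day 0 and 27 day 4 cells. After thinning, the shares were 0.222% and 2.97%, a ratio of 13.4 (3.55 to 113). The Tfh-gated cells of day 4 had a median of 10617 UMIs against 5715 in the pool. Without the 2% of cells with the most UMIs in each pool, the ratio of thinned shares was 8.17 (2.65 to 40.9).

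The Foxp3 gate, cells with a Foxp3 UMI, held 5.26% of day 0 and 10.2% of day 4 cells, a ratio of 1.94 (1.41 to 2.72). Thinned shares were 3.77% and 6.00%, with a ratio of 1.59 (1.08 to 2.40). When cells were thinned to 1000 UMIs the interval included 1, at 1.60 (0.974 to 2.74). In the B library, 0.182% of control day 0 B cells (median 4676 UMIs) and 0.202% of control day 4 B cells (median 6076 UMIs) had a Foxp3 UMI. The effector/memory gate (at least 2 of S100a4, Itgb1, Cxcr3, Cxcr6, Ccr2, Ccl5 and Il18r1) held 5.48% and 8.50%, a ratio of 1.55 (1.12 to 2.17), and 1.48 (1.03 to 2.18) when thinned. The naive gate (markers of naive cells, at least 1 of them from Ccr7, Lef1, Igfbp4 and Dapl1, and S100a4 at 0) held 64.0% at day 0 and 49.97% at day 4, a ratio of 0.780 (0.704 to 0.866). Thinned, it held 40.2% and 31.2%, a ratio of 0.777 (0.681 to 0.888). Ungated cells made up 18.2% and 18.3%, and 11 and 27 cells fell in a CD8 gate. The innate-like gate, built on receptors and granule genes of natural killer cells, held 5.15% and 4.50%, with an interval of the ratio that includes 1 (0.607 to 1.27).

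The dividing gate overlapped the others and asked for at least 2 of Mki67, Top2a, Birc5, Pclaf, Cdk1, Ccna2 and Rrm2. It held 6 cells at day 0 (0.658%) and 96 at day 4 (4.86%), a ratio of 7.38 (3.27 to 20.6), and after thinning 0.444% and 2.82%, a ratio of 6.35 (2.35 to 24.1). At day 4 the dividing share was 17.0% in the Tfh gate (24 of 141 cells), 11.9% in the effector/memory gate (20 of 168), 10.1% in the innate-like gate (9 of 89), 8.91% in the Foxp3 gate (18 of 202) and 1.82% in the naive gate (18 of 988). Thinned, the Tfh and naive shares were 13.8% and 0.985%, with intervals that do not overlap (6.15 to 25.4% and 0.362 to 2.13%). The KO pools, from other mice on the same days, gave thinned ratios of day 4 over day 0 of 2.31 (1.19 to 5.02) for the Tfh gate, 1.53 (1.12 to 2.11) for Foxp3, 0.863 (0.641 to 1.17) for effector/memory, 0.811 (0.728 to 0.904) for naive and 2.47 (1.27 to 5.35) for dividing cells. Whether the genotypes differ in these ratios was not tested.

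**Figure D1:**
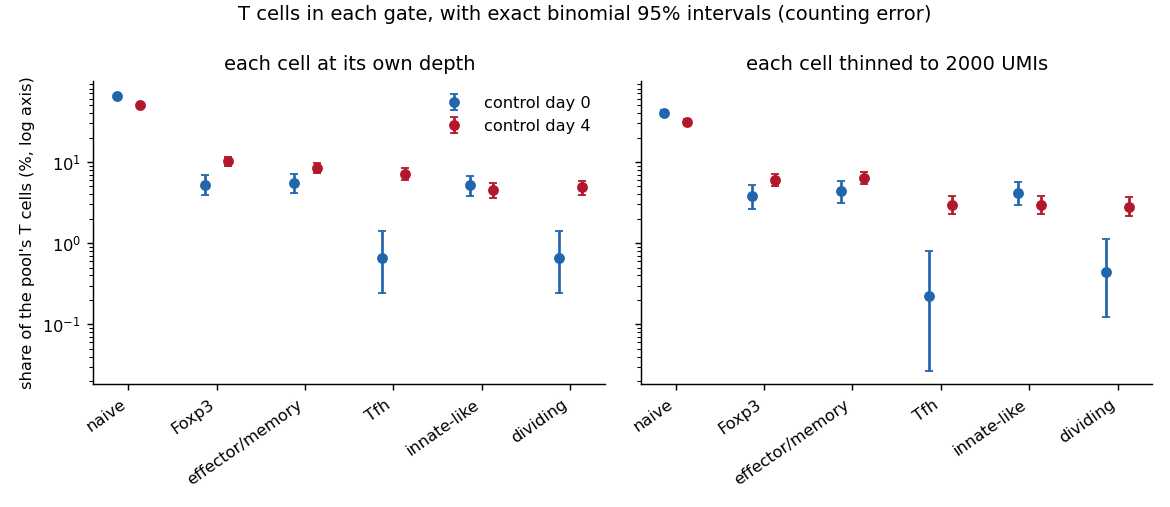
Share of control T cells in each gate (log axis, percent of the pool's T cells) at day 0 (blue) and day 4 (red), with each cell at its own depth (left) and thinned to 2000 UMIs (right); bars are exact binomial 95% intervals. The day 4 Tfh and dividing points, 7.13% and 4.86% at own depth, lie above day 0 intervals that end at 1.43%.

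The gates were checked on genes they did not use. At day 4 the Foxp3 gate had Il2ra, the high-affinity interleukin-2 receptor chain, at 314 CPM against 9.67 in the naive gate, and Ikzf2 (Helios) at 664 against 19.0. The Tfh gate had Maf, a transcription factor of Tfh cells, at 517 CPM against 27.2. Tbc1d4 stood at 401 against 38.7, Cd200 at 245 against 29.4 and Il4 at 94.0 against 0.328. The effector/memory gate had S100a6 at 1631 CPM against 63.3 and Ahnak at 508 against 39.0. For the naive gate, Satb1 stood at 469 CPM against 159 in effector/memory cells and Actn1 at 326 against 140. Klf2, at 567 against 605, did not separate them. At day 0 Satb1 stood at 541 against 124 and Actn1 at 372 against 133, but Klf2 was lower in the naive gate, at 644 against 897 CPM (0.718, 0.621 to 0.834). In the day 0 Tfh gate of 6 cells, Maf stood at 631 against 10.9 CPM. The intervals of Cd200 (3.07, 0.360 to 11.7) and Slamf6 (1.15, 0.419 to 2.53) included 1 there. The day 0 Foxp3 gate had Il2ra at 265 CPM against 8.79.

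Over all control T cells, 8819 genes had at least 100 UMIs in both pools together and were compared as the ratio of their CPM. Of these, 637 (7.22%) were at least 1.5-fold higher at day 4 and 217 (2.46%) at least 1.5-fold lower, around a median log2 ratio of 0.02. The day 4 pool held more UMIs. A gene high at day 4 could thus reach the minimum at a lower CPM than one high at day 0. How much this adds to the excess of higher genes was not tested. With the cells of the dividing gate left out, 344 of 8521 (4.04%) were higher and 156 (1.83%) lower. With the day 4 gates weighted to their day 0 shares of UMIs, 385 were higher, 372 of them among the 637. Of the same 8819 genes, 381 were higher and 72 lower in the KO pools, where no UMI minimum was asked. The KO pools shared 286 of the higher genes, which is 44.9% of the control genes and 75.1% of the 381 higher in KO. They shared 29 of the lower genes, 13.4% of the control genes and 40.3% of the 72 lower in KO.

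**Figure D2:**
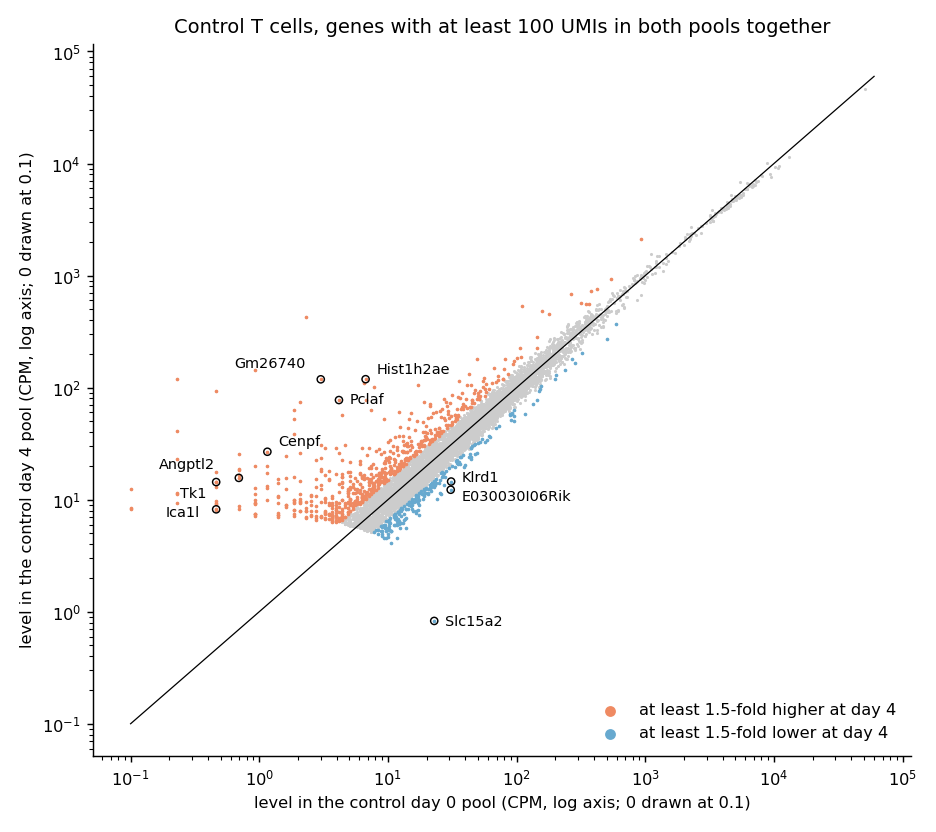
Level of each compared gene in the control day 0 (x) and day 4 (y) pools, in CPM on log axes; each point is 1 of 8819 genes, orange at least 1.5-fold higher and blue at least 1.5-fold lower at day 4. Gm26740 (119 against 3.01 CPM) and Slc15a2 (0.827 against 22.9 CPM) lie far from the line of equal levels.

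Genes of DNA replication and mitosis made up 10 of the 15 highest ratios among genes found in at least 2% of day 4 cells, with at most 10% of their UMIs in 1 cell. Tk1, thymidine kinase of the DNA precursor supply, had 191 UMIs at day 4 and 2 at day 0, which is 14.4 against 0.462 CPM, a ratio of 31.1 (8.48 to 258). Rrm2, a ribonucleotide reductase subunit, stood at 38.7 against 1.85 CPM (20.9, 10.55 to 48.8), and Pclaf, a partner of the replication clamp PCNA, at 77.5 against 4.16 (18.6, 11.7 to 31.5). Cenpf, of the kinetochore, stood at 26.8 against 1.16 CPM (23.2, 9.83 to 71.8). Cenpe, Kif11, Clspn, Nusap1, Ckap2 and Uhrf1 had ratios of 17.2 to 27.2, each on 2 to 5 UMIs at day 0. Few cells gave these levels, since each of the 10 genes was found in 2.12% to 4.10% of the day 4 cells. The core histone genes Hist1h2ae, at 119 against 6.70 CPM, and Hist1h2ap, at 109 against 6.47, have near-identical copies in their cluster and are uncertain as single genes. In the KO pools the ratios of the same division genes were lower, from 1.80 for Kif11 to 3.36 for Ckap2, over day 0 levels that were higher than in the control pool, as for Cenpf at 7.80 CPM. Of 35 division genes in the list, 25 were at least 1.5-fold higher over all T cells, against 7.22% of all genes compared. Their median log2 ratio was 1.35. Without the dividing gate 22 could be compared, and the median was 0.02. Of these, 2 (Mcm6 and Cks2) were higher and 1 (Stmn1) lower by the same fold. Over all genes without the dividing gate, 4.04% were higher and 1.83% lower. Division genes, Pclaf and Rrm2 among them, define that gate, so leaving out its cells lowers such genes by construction.

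Genes of Tfh cells were higher as a group over the whole pool. Of 21 list members compared, 18 were at least 1.5-fold higher and 0 lower, with a median log2 ratio of 1.68 against 0.02 over all genes. The shares over all genes were 7.22% higher and 2.46% lower. The list was chosen with results of these data known and holds the genes of the gate. Sostdc1, a secreted antagonist of BMP and Wnt ligands, had 306 UMIs at day 4 and 1 at day 0, a ratio of 99.5 with a wide interval (17.7 to 3944). Of its day 4 UMIs, 89.2% lay in the Tfh gate, in 16.3% of the cells gated. Tox2, a transcription factor of the Tfh program, stood at 23.8 against 3.01 CPM (7.91, 4.56 to 15.01), and Cxcr5, the follicle homing receptor, at 17.9 against 3.47 (5.16, 3.07 to 9.37). Pdcd1, which encodes PD-1, stood at 30.5 against 4.62 CPM (6.59, 4.21 to 10.9). Cd200, which was not in the gate, stood at 74.7 against 19.0 CPM (3.94, 3.14 to 4.996), and Maf at 180 against 48.8 (3.68, 3.20 to 4.26).

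Among helper cytokines, 10 of 22 could be compared and 3 were at least 1.5-fold higher, against 7.22% of all genes. Il21, the Tfh cytokine for B cells, had 144 UMIs against 11, which is 10.8 against 2.54 CPM (4.26, 2.31 to 8.72), and 90.3% of the day 4 UMIs lay in the Tfh gate that it helped to define. Il4 stood at 17.8 against 4.85 CPM (3.67, 2.35 to 6.04), with 67.5% of its UMIs in the Tfh gate, where 39.0% of cells had one. Ccl4, a chemokine, had 130 UMIs against 2, and 63.1% of them lay in 1.42% of the Tfh-gated cells, so this value rests on few cells. Ltb, the lymphotoxin beta chain, was lower at 599 against 856 CPM (0.7002, 0.673 to 0.728), and Xcl1 at 13.5 against 18.5 (0.732, 0.559 to 0.965). Angptl2, a secreted angiopoietin-like protein of the Tfh list and among the 15 highest ratios, stood at 15.6 against 0.694 CPM (22.6, 7.61 to 110), with 54.3% of its UMIs in the Tfh gate and a level of 66.4 CPM there against 0.492 in the naive gate. Its KO levels were 8.74 at day 4 and 5.55 CPM at day 0. Ica1l, a vesicle protein, completed the 15 with 8.20 against 0.462 CPM (17.7, 4.79 to 148).

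Costimulatory and inhibitory receptors differed in both directions. Of 27 costimulatory and inhibitory receptors compared, 12 were higher and 1 lower by 1.5-fold, with a median log2 ratio of 0.37. Over all genes, 7.22% were higher and 2.46% lower. Tigit, an inhibitory receptor, stood at 63.3 against 7.40 CPM (8.56, 6.02 to 12.6), and at day 4 its level was 244 CPM in the Tfh gate, 169 in the Foxp3 gate and 5.58 in the naive gate. Lag3, an inhibitory receptor for MHC class II, stood at 28.8 against 3.93 CPM (7.33, 4.52 to 12.7). Tnfsf11 (RANKL) was higher at 20.8 against 6.01 CPM (3.45, 2.31 to 5.38), and Cd160 was lower at 5.41 against 10.2 (0.532, 0.361 to 0.793). In the innate-like gate Cd160 stood at 58.6 CPM at day 4 and 157 at day 0, the latter on 38 UMIs in 47 cells. In the naive gate it stood at 0.656 and 0.351 CPM. With the dividing gate left out, Lag3, Tigit, Tox2 and Pdcd1 were among the 15 highest ratios, where they had not been before, at 7.98, 7.62, 7.11 and 6.16. The others there were Gm26740 and Angptl2 again, Morrbid, a long noncoding RNA (9.76), Frmd4b (9.11), Smtn (8.17), Casp4 (5.94), Cpne8 (5.81), Plscr1 (5.58), Lrrc32 (5.38), Rsad2 (5.30) and Slc22a15 (4.89).

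**Figure D3:**
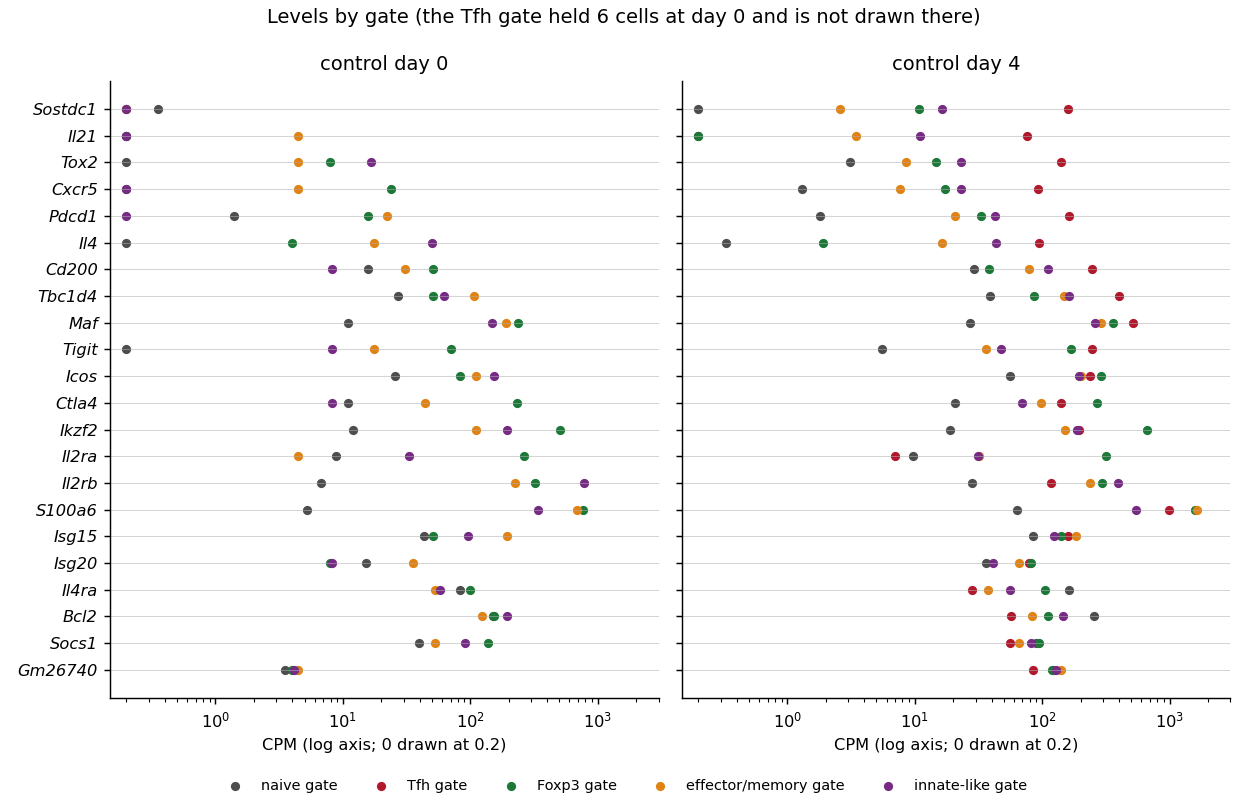
Level of 22 genes in 5 gates of the control day 0 pool (left) and day 4 pool (right), in CPM on a log axis with 0 drawn at 0.2; each point is the sum over the cells of 1 gate, and the Tfh gate is not drawn at day 0, where it held 6 cells. At day 4 Sostdc1, Il21, Tox2, Cxcr5 and Pdcd1, which the Tfh gate used, are highest in it, as are Il4, Cd200, Tbc1d4 and Maf, which it did not use.

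Transcription factors of helper T cells showed 12 of 30 at least 1.5-fold higher and 1 lower, with a median log2 ratio of 0.37. Among all genes compared, the shares were 7.22% and 2.46%. Irf4, which antigen receptor signals induce, stood at 29.0 against 7.17 CPM (4.04, 2.80 to 6.03), Pou2af1 at 9.47 against 2.31 (4.10, 2.16 to 8.75) and Prdm1, which encodes Blimp-1, at 10.8 against 3.699 (2.93, 1.74 to 5.26). Lef1, a factor of naive cells, was lower at 371 against 592 CPM (0.627, 0.598 to 0.658), and Id2 at 107 against 153 (0.699, 0.637 to 0.768). Of 15 regulatory T cell genes, 12 were higher and 0 lower by 1.5-fold, with a median log2 ratio of 0.97. Ctla4 stood at 79.9 against 27.3 CPM (2.93, 2.42 to 3.57) and Tnfrsf4 (OX40) at 74.7 against 28.2 (2.65, 2.19 to 3.22).

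Genes of effector and memory cells had 10 of 23 members higher and 1 lower, with a median log2 ratio of 0.52. All genes compared had 7.22% higher and 2.46% lower. Anxa2, a membrane-binding annexin, stood at 106 against 17.1 CPM (6.22, 4.92 to 7.97), S100a6 at 536 against 110 (4.86, 4.43 to 5.34) and Lgals1, galectin-1, at 485 against 157 (3.09, 2.86 to 3.35). Cxcr6, a chemokine receptor of tissue-homing cells, was lower at 24.2 against 42.8 CPM (0.566, 0.471 to 0.682). Among 21 genes of naive and quiescent cells, 0 were higher and 4 lower, with a median log2 ratio of -0.35. These 4 were Il7r, the interleukin-7 receptor, at 271 against 503 CPM (0.540, 0.511 to 0.569), Txnip at 166 against 282 (0.589, 0.549 to 0.632), Lef1, and Ccr7 at 206 against 325 (0.633, 0.594 to 0.676). Bcl2, a survival factor in the same list, was higher, at 182 against 140 CPM (1.30, 1.19 to 1.42).

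**Figure D4:**
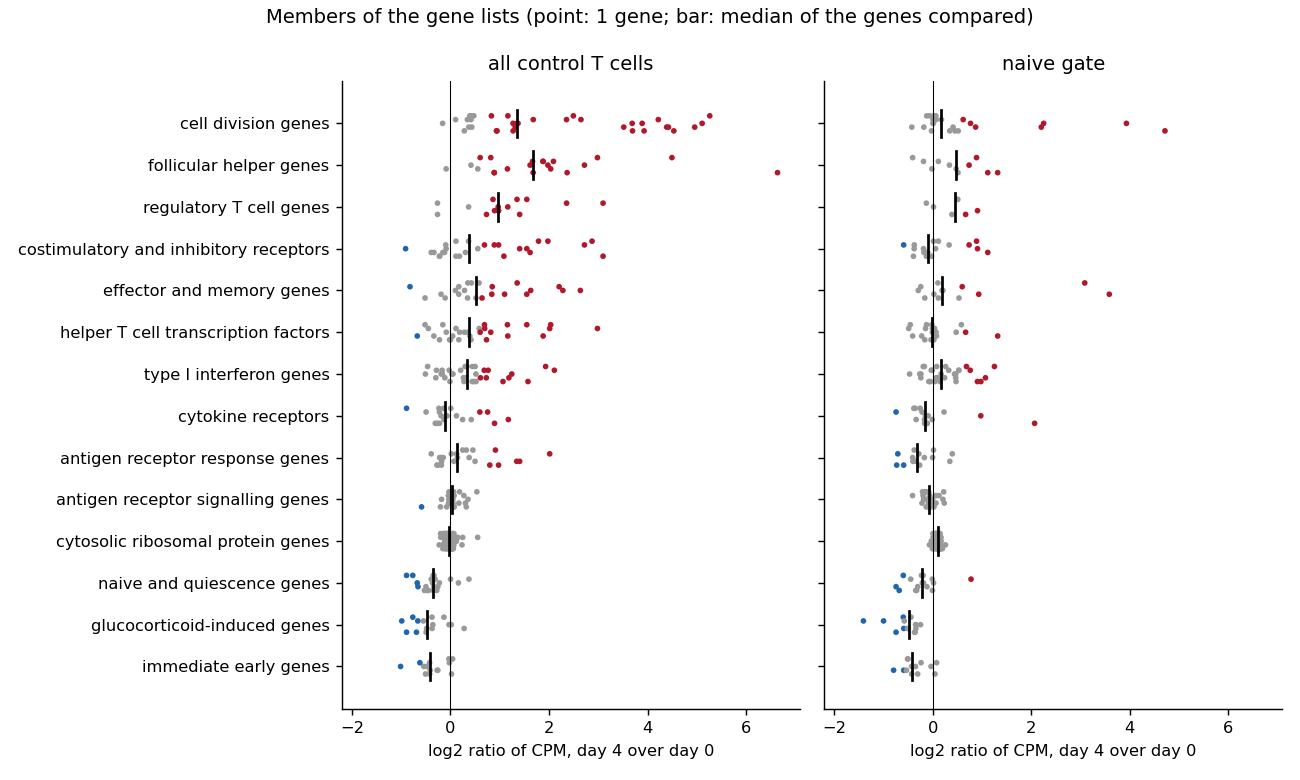
Log2 ratio of CPM, day 4 over day 0, for the members of 14 gene lists over all control T cells (left) and in the naive gate (right); each point is 1 gene, red or blue where at least 1.5-fold higher or lower, and each bar is the median of the genes compared. The medians of division and Tfh genes, 1.35 and 1.68 over all cells, are 0.18 and 0.48 in the naive gate. They rest on fewer genes there, 23 against 35 for division and 11 against 21 for Tfh genes. The naive gate leaves out the gate genes and holds no cell that met the Tfh gate, so a lower Tfh median is partly built in.

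Within the naive gate, 584 day 0 and 988 day 4 cells were compared over 7018 genes, the gate genes left out. Here 144 (2.05%) were at least 1.5-fold higher and 166 (2.37%) lower, around a median log2 ratio of -0.07, and with ratios centred on that median the split was 195 higher and 91 lower. Of the same 7018 genes, with no UMI minimum in the KO pools, 131 were higher and 40 lower there, 56 and 11 of them shared with the control. Il4ra, the interleukin-4 receptor chain, stood at 163 against 82.6 CPM (1.97, 1.71 to 2.28), with a KO ratio of 2.42. Socs1 and Socs3, feedback inhibitors of cytokine receptors, stood at 88.7 against 39.7 (2.23, 1.82 to 2.76) and 65.6 against 32.7 CPM (2.01, 1.60 to 2.54). Bcl2 stood at 257 against 150 CPM (1.72, 1.54 to 1.92), with a KO ratio of 1.66. Icos, a costimulatory receptor, stood at 55.8 against 25.7 (2.17, 1.68 to 2.84). The levels of Il4ra and Bcl2 at day 4 were lower in the Tfh gate, at 28.2 and 56.4 CPM, than in the naive gate.

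H2-DMa, a chaperone subunit that loads peptide onto MHC class II, had 648 UMIs against 77 in the naive gate, which is 106 against 27.1 CPM (3.93, 3.10 to 5.04), and a KO ratio of 5.07. Over all T cells it stood at 86.0 against 31.4 CPM, and in B cells of the same pools at 519 against 407. Its annotated span, chr17:34119541-34139101 on the plus strand of mm10, overlaps Brd2 on the other strand. Ppp3cc, a catalytic subunit of calcineurin, stood at 132 against 42.2 CPM in the naive gate (3.12, 2.57 to 3.81), with a KO ratio of 3.71 and levels in B cells of 98.2 and 83.9. H2-DMa had no such difference in the Foxp3 gate, at 49.3 against 55.3 CPM. In the naive gate Fam240a stood at 16.6 against 3.87 (4.28, 2.30 to 8.85), with a KO ratio of 6.10. Il2rb, the gene floxed in these mice, stood at 28.0 against 6.68 CPM (4.20, 2.61 to 7.15), on 19 UMIs at day 0. Its KO ratio was 1.67, at 23.7 against 14.2 CPM. In the control innate-like gate Il2rb was lower at day 4, at 394 against 786 CPM. Cst7 (3.12), E2f2 (2.58) and P2rx7 (2.52) completed the 8 highest with Gm26740.

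Some of the naive gate's values moved with a stricter gate, which asked for 2 of the naive genes and no UMI of S100a4, Cd44, Itgb1, S100a6 or Il2rb and kept 410 and 663 cells. H2-DMa (4.30), Ppp3cc (3.17), Fam240a (4.75), Il4ra (2.04), Bcl2 (1.98), Socs1 (2.45), Socs3 (2.11) and Icos (1.72) kept intervals above 1. The intervals of E2f2 (1.40, 0.724 to 2.89), P2rx7 (1.30, 0.604 to 3.04), Cd200 (1.40, 0.857 to 2.37) and Maf (0.681, 0.311 to 1.52) included 1. In the wider gate Maf stood at 27.2 against 10.9 CPM (2.50) and Cd200 at 29.4 against 15.8 (1.86).

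Lower genes of the naive gate included members of the glucocorticoid and immediate early lists. Cxcr4, the receptor for CXCL12, stood at 7.71 against 20.4 CPM (0.378, 0.252 to 0.565), with 10.39 against 18.9 in the KO pools. Sgk1, a kinase that glucocorticoids induce, stood at 20.99 against 41.8 CPM (0.502, 0.388 to 0.650), and Bbc3, which encodes the pro-apoptotic PUMA, at 9.35 against 18.6 (0.502, 0.339 to 0.744). Hs3st3b1, a heparan sulfate sulfotransferase, stood at 12.3 against 28.5 CPM (0.432, 0.311 to 0.599), and Tiparp and Pcgf1 had ratios of 0.501 and 0.502. Over all genes of this gate, 2.05% were higher and 2.37% lower. Of 14 glucocorticoid-induced genes compared in this gate, 0 were higher and 5 lower by 1.5-fold. Their median log2 ratio was -0.47, and 12 intervals lay below 1. Besides Cxcr4 and Sgk1 the 5 were Il7r at 0.598 (0.559 to 0.640), Txnip at 0.662 (0.606 to 0.724) and Dusp1 at 0.667 (0.506 to 0.881). Il7r and Txnip are also in the list of naive and quiescence genes. The KO median for the glucocorticoid list in this gate was -0.31. Of 13 immediate early genes, which follow stimuli and also cell handling, 0 were higher and 2 lower, with a median log2 ratio of -0.42. Jun, an AP-1 subunit, stood at 66.4 against 115 CPM (0.578, 0.498 to 0.671), with a KO ratio of 0.702.

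Antigen receptor response genes had medians on opposite sides of 0 over the pool and in the naive gate, though over different sets of genes. Over all T cells 6 of 23 were at least 1.5-fold higher and 0 lower, with a median log2 ratio of 0.14, and Irf4 and Tnfrsf4 led. All genes compared had 7.22% higher and 2.46% lower. The genes of the naive gate had 2.05% higher and 2.37% lower, with a median of -0.07. Of 14 response genes in that gate, 0 were higher and 3 lower, with a median of -0.31, against 0.14 in the KO pools. The 3 were Nfkbid, an inhibitor of NF-kB, at 23.1 against 38.3 CPM (0.604, 0.467 to 0.782), Tagap at 30.2 against 49.2 (0.613, 0.490 to 0.769) and Cd6 at 94.8 against 142 (0.666, 0.585 to 0.758). Cd5, a receptor that scales with self-reactivity, stood at 184 against 238 CPM (0.772, 0.701 to 0.850). The KO ratios of Cd5 and Cd6 were both 1.14. The 27 antigen receptor signalling genes had a median log2 ratio of 0.03 over all T cells.

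Type I interferon genes were higher in part. These genes are induced through the receptor chains Ifnar1 and Ifnar2, and their promoters often hold the interferon-stimulated response element. Over all T cells 10 of 35 were at least 1.5-fold higher and 0 lower, with a median log2 ratio of 0.33 against 0.02 over all genes. The shares of all genes were 7.22% higher and 2.46% lower. Rsad2, which encodes viperin, stood at 14.96 against 3.47 CPM (4.32, 2.55 to 7.86). Ifit3b stood at 9.70 against 2.54 (3.81, 2.06 to 7.83) and Isg20, an exonuclease, at 50.2 against 16.9 (2.98, 2.33 to 3.84). Oasl2 stood at 11.5 against 4.85 CPM (2.37, 1.496 to 3.94), and Ifi27l2a at 2108 against 926 (2.28, 2.20 to 2.35). Others of the list were lower, Ifit2 at 28.1 against 40.0 (0.703, 0.586 to 0.847) and Ifi208 at 36.4 against 50.2 (0.725, 0.617 to 0.855). The KO pools had 1 of the 35 past the fold, with a median of 0.08. In the naive gate 6 of 32 were higher and 0 lower, beside 2.05% and 2.37% of all genes there. The higher ones included Isg20 at 36.1 against 15.1 CPM (2.39, 1.72 to 3.39), Ifit1 at 49.5 against 23.5 (2.10, 1.61 to 2.78) and Isg15 at 85.3 against 43.2 (1.97, 1.62 to 2.42). In the effector/memory gate, 2 of 22 were higher and 1 lower, with a median of -0.01. These counts are near the shares of all genes there, 8.37% and 4.48%.

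For the response element, the 250 bases before the first listed start of each gene were searched on both strands for GAAA, any 2 bases and GAAA again, in RefSeq promoters of GRCm38.p6. Of the 35 members compared, 29 had a promoter in the table and 16 (55.2%) held the motif, against 3.04% of 27025 promoters. It was found in 6 of the 8 members with a promoter that were at least 1.5-fold higher and in 10 of the 21 others. The median ratio was 1.37 with the motif and 1.15 without it. Whether the motif goes with the ratio was not tested. Isg20 and Oasl2 had no match in this window. The matching stretches are shown for Rsad2 and Ifit3b, the highest of the list, for Isg15, and for Ifit3, the near copy of Ifit3b. Capitals mark the motif on either strand, and overlapping matches run together.
Rsad2, chr12:26456543-26456592, minus strand: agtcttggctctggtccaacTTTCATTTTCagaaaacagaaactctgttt
Ifit3b, chr19:34607749-34607832, plus strand: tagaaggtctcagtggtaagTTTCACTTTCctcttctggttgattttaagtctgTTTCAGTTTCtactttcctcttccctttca
Ifit3, chr19:34583353-34583436, plus strand: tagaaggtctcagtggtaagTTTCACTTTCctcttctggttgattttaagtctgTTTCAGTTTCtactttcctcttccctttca
Isg15, chr4:156200855-156200916, minus strand: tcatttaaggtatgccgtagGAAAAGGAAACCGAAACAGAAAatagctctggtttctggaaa
Ifit3b and Ifit3 carry the same 84 bases. As near copies, their UMIs could have been split by counting.

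A pair of genes differed strongly between pools in T cells and in B cells as well. Gm26740, a long noncoding RNA at chr10:22187013-22302835 on the minus strand of mm10, antisense to Raet1e and H60b, had 1577 UMIs at day 4 and 13 at day 0. That is 119 against 3.01 CPM, a ratio of 39.5 (23.01 to 74.3), with a UMI in 49.6% and 1.21% of cells. The level was 126 CPM in KO day 4 and 135 in KO day 0 T cells, so the control day 0 pool stood apart from the other 3. In B cells the control levels were 179 at day 4 and 3.03 CPM at day 0, and the KO levels 189 and 229. At day 4 it ranged from 84.6 CPM in the Tfh gate to 141 in the effector/memory gate. Raet1e, H60b and Gm26581, which overlap it on the other strand, had 3, 9 and 14 UMIs at day 4 and 0 at day 0. The labels do not state whether the counting used strand. E030030I06Rik, at chr10:22113050-22149270 on the same strand, stood at 12.3 against 30.7 CPM (0.399, 0.315 to 0.505), and at 12.9 against 16.8 in the KO pools.

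Slc15a2, a transporter of small peptides at chr16:36750177-36784962 on the minus strand, was the lowest of all ratios, with 11 UMIs at day 4 and 99 at day 0. That is 0.827 against 22.9 CPM, a ratio of 0.0361 (0.0175 to 0.0675). In KO T cells it had 0 UMIs at day 4, which allows up to 0.133 CPM, and 12.5 CPM at day 0. In B cells it stood at 0.428 against 13.8 CPM in the control pools. Here both day 4 pools were low and both day 0 pools high. Gm21887 stood at 11.4 against 25.2 CPM (0.454, 0.352 to 0.586), at 10.1 against 21.5 in the KO pools, and at 42.9 against 61.0 in control B cells. The other lower genes had ratios of 0.383 to 0.475. They included Pxylp1, Zcwpw1, Sqor, Hid1, Atp8b4, Zscan22, Mpp7, Eya2, Enpp4, Myo10 and the natural killer receptor gene Klrd1, at 14.5 against 31.0 CPM in control and 16.6 against 16.5 in KO.

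**Figure D5:**
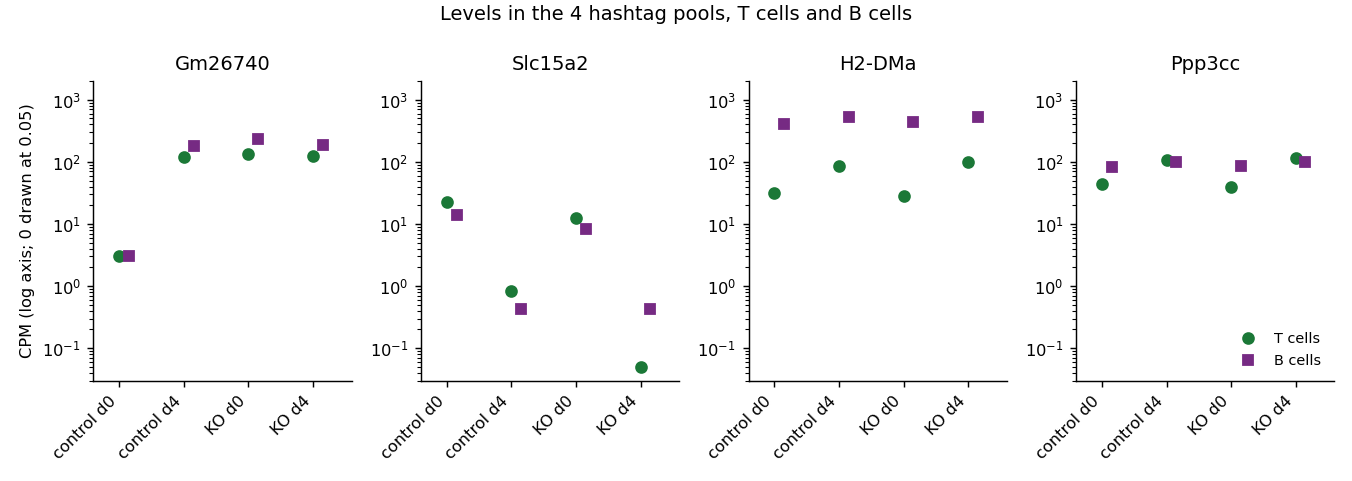
Levels of Gm26740, Slc15a2, H2-DMa and Ppp3cc in the 4 pools, in CPM on a log axis with 0 drawn at 0.05; circles are T cells and squares B cells, each the sum over 1 pool. Gm26740 is low only in the control day 0 pool of both libraries, while Slc15a2 is low in both day 4 pools of both libraries.

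The Foxp3 gate held 48 day 0 and 202 day 4 cells, so only 2639 genes could be compared. Of these, 397 (15%) were at least 1.5-fold higher and 100 (3.79%) lower. The gate held 252939 UMIs at day 0 and 1562222 at day 4, so genes high at day 4 reached the UMI minimum more easily. The simulated data did not cover this gate. Division genes led, with 25 of 29 higher and a median log2 ratio of 1.39. Mcm6, a helicase subunit of DNA replication, stood at 107 against 19.8 CPM (5.41, 2.27 to 16.9). Icos stood at 290 against 83.02 CPM (3.49, 2.26 to 5.70), with a KO ratio of 1.66. Gm43305, Gm19585, Asxl1, Actl6a and Ap1m1 had ratios of 3.02 to 8.20. Of 11 regulatory T cell genes compared here 3 were higher, with a median of 0.25, among them Tigit at 169 against 71.2 CPM (2.37, 1.47 to 4.07). Tnfrsf4 stood at 373 against 206 (1.81, 1.36 to 2.46). Of 14 effector and memory genes 4 were higher and 2 lower, with Lgals1 at 1449 against 573 CPM (2.53, 2.14 to 3.01) and S100a6 at 1580 against 767 (2.06, 1.78 to 2.40). Of 11 immediate early genes 5 were lower, with a median of -0.57, led by Jun at 59.5 against 142 CPM (0.418, 0.282 to 0.633). Id2, an inhibitor of E proteins, stood at 51.8 against 158 CPM (0.328, 0.222 to 0.492), and Ly6c1 at 62.1 against 138 (0.449, 0.302 to 0.681). Arhgef18, Usp24, Kmt2c, Xpo6, Ahnak and Pip4k2a had ratios of 0.474 to 0.518. B cell transcripts were also higher in this gate, Ighm at 626 against 423 CPM (1.48, 1.21 to 1.82) and Cd74 at 97.3 against 43.5 (2.24, 1.22 to 4.58), and their part in these results was not tested.

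The effector/memory gate held 50 and 168 cells, with 168 of 2007 genes (8.37%) higher and 90 (4.48%) lower. Here too the UMI minimum favoured genes high at day 4, with 226332 UMIs at day 0 and 1166463 at day 4. Anxa2 stood at 266 against 106 CPM (2.51, 1.65 to 3.97), with a KO ratio of 2.27. Rilpl2 stood at 128 against 39.8 (3.21, 1.65 to 7.16), and Ctsa, Psmb7, Cenpa, Smc1a and Eif6 had ratios of 2.41 to 2.63. Of 20 division genes 14 were higher, with a median log2 ratio of 1.12, whereas the KO pools had 0 higher and 4 lower. Over all 2007 genes, 61 were higher and 27 lower in the KO pools. Trat1, an adaptor of the T cell receptor, stood at 60.0 against 150 CPM (0.399, 0.262 to 0.621). The inhibitory receptor gene Cd96 stood at 79.7 against 168 (0.475, 0.322 to 0.712). H2-Q6, a nonclassical MHC class I gene with near copies, stood at 158 against 358 CPM (0.441, 0.338 to 0.580), and Neat1, Myo1f, Fam102a, Rbl2 and Tcf20 had ratios of 0.420 to 0.479. Ighm was higher here as well, at 222 against 106 CPM (2.09, 1.38 to 3.33), and its part was not tested. The Tfh gate had 6 cells at day 0, too few to compare its genes between days.

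Several lists of cell growth and housekeeping had 0 members past the fold over all T cells, where 7.22% of all 8819 genes were higher and 2.46% lower. Of 28 MYC and ribosome biogenesis genes 0 passed the fold, with a median log2 ratio of 0.11, and of 76 cytosolic ribosomal protein genes 0 passed, with a median of -0.03. In the naive gate the ribosomal protein median was 0.10, and 64 of 76 intervals lay above 1. The 74 oxidative phosphorylation genes had 0 past the fold, a median of 0.21 and 57 intervals above 1. The 19 proteasome genes had 0 past the fold, a median of 0.25 and 17 intervals above 1. Of 14 glycolysis genes 2 were higher, Tpi1 at 40.5 against 18.7 CPM (2.16, 1.71 to 2.76) and Gapdh at 937 against 537 (1.75, 1.67 to 1.83), with a median of 0.21. Of 18 cholesterol synthesis genes 4 were higher, led by Nsdhl at 14.4 against 7.17 CPM (2.004, 1.37 to 3.03), with a median of 0.23. The 14 heat shock chaperones, 16 MHC class I genes and 8 GIMAP genes, which encode lymphocyte GTPases, had 0 past the fold and medians of 0.07, -0.04 and -0.16. Of 15 glucocorticoid-induced genes over all T cells 0 were higher and 5 lower, with a median of -0.48, and of 14 immediate early genes 0 and 2, with a median of -0.42.

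Receptor and survival lists were mixed. Beside the counts stand the shares over all 8819 genes, 7.22% higher and 2.46% lower, and some of these lists are near them. Of 20 cytokine receptors 4 were higher and 1 lower, with a median log2 ratio of -0.11. Il12rb1 stood at 8.87 against 3.93 CPM (2.26, 1.35 to 4.01) and Il2ra at 51.6 against 27.7 (1.86, 1.53 to 2.28), while Il7r was the lower gene. Of 19 JAK, STAT and SOCS genes 2 were higher, Socs2 (1.71, 1.04 to 2.96) and Socs1 (1.67, 1.44 to 1.93), with a median of 0.12. Of 22 homing and adhesion receptors 5 were higher and 2 lower, with a median of 0.07. Ccr4 stood at 19.1 against 7.17 CPM (2.67, 1.83 to 4.01) and Itgb1, an integrin chain, at 228 against 106 (2.14, 1.94 to 2.37). S1pr1, the receptor for exit from lymphoid tissue, stood at 234 against 301 (0.777, 0.728 to 0.829). Of 13 BCL2 family genes 4 were higher and 1 lower, with a median of 0.38, among them Bcl2a1b at 81.8 against 34.9 CPM (2.34, 1.98 to 2.80), which has near-identical copies. Of 15 interferon-gamma induced GTPases 1 was higher, Gbp3 at 13.7 against 6.01 CPM (2.28, 1.504 to 3.58), with a median of 0.03.

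Markers of other cells were few. Summed over 8 B cell markers the level was 288 against 251 CPM, 1 of 3 compared members, Cd74, was higher (1.61, 1.20 to 2.20), and Ms4a1 had 0 UMIs in both pools. Summed over 7 myeloid markers it was 114 against 75.1 CPM, with Lyz2 at 340 UMIs against 3, found in 0.455% of day 4 cells, and S100a8 at 0 in both pools. Globin genes had 10415 UMIs at day 4 and 17 at day 0, with 95.7% of the day 4 UMIs in 2 cells, and the 4 compared erythroid markers, all globin genes, were higher. The 2 platelet markers could not be compared, and the 2 compared sex-linked genes had 0 past the fold. Without the 15 day 4 and 3 day 0 cells with at least 10 globin UMIs or any Lyz2 UMI, 621 genes were higher and 214 lower.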

How the data were processed

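The deposited matrices hold UMI counts per cell for 32285 genes and 4 hashtags, which the authors made with Cell Ranger 5.0.0 on mm10, per the submitters' processing notes, from 5′ version 2 libraries, per the labels. The labels name no annotation for the counts. GENCODE M21, which matched 99.6% of the gene identifiers, gave gene positions and types. Of cells that passed the quality filter, 1008 failed the hashtag rule, which also leaves out barcodes with 2 strong hashtags, and 37 cells with both Cd3e and Cd79a were left out. No doublet caller was run.

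Counts were summed per pool, scaled to the pool's total (CPM) and compared as ratios with conditional exact binomial 95% intervals. Shares have exact binomial (Clopper-Pearson) intervals. All intervals cover counting error only. A difference was counted at 1.5-fold among genes with at least 100 UMIs in both pools together. The day 4 side held more UMIs, so this minimum favours genes higher at day 4. A count of 0 was given the limit of 3 counts. The ratio script was tested on simulated data for all T cells and the naive gate, not for the other gates. Named genes were the 15 highest and 15 lowest ratios over all T cells (8 and 8 within a gate) with an interval excluding 1, UMIs in at least 2% of the higher pool's cells and at most 10% of them in 1 cell, receptor segments left out, and for each of 32 lists at most 5 members per direction. Mcm6, Cks2 and Stmn1 outside the dividing gate, and levels of a named gene in a further gate, were named after their values were seen. Some genes of the gates and lists are not reported here. The cells, gates and lists were chosen with earlier results of these data known. Python 3.11.15, numpy 2.4.6, scipy 1.17.1 and pandas 2.3.3 were used.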

Additional observations from a re-analysis of the deposited data

Results flagged for a closer look

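Ahnak, a large scaffold protein of effector and memory cells, had ratios of day 4 over day 0 on opposite sides of 1 in the Foxp3 gate of the genotypes. The control ratio was 0.510 (270 against 530 CPM) and the KO ratio 1.91 (307 against 161 CPM). Each ratio compares 1 pool with 1 pool, so the difference was not tested. At day 4 the levels were close, and at day 0 the control pool had 48 cells in the gate.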

How the results depend on the processing

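No paired analysis was possible because each side is 1 pool and the pools share no replicate numbers. The counts of genes past 1.5-fold changed with the UMI minimum and with thinning. With at least 300 UMIs, 278 genes were higher and 67 lower over all T cells, and 38 and 26 in the naive gate. With at least 20 UMIs, the counts were 1312 and 580, and 541 and 603. With each cell thinned to 2000 UMIs, they were 220 and 101, and 60 and 95, and 141 of the 637 higher genes were kept. Centred on the median, the naive gate had 91 lower genes. Among alternatives chosen after seeing the data, 344 genes were higher over all T cells without the dividing gate, 385 with day 4 gates weighted to their day 0 shares, and 67 were higher in the stricter naive gate, which kept 40 of the 144. Without the dividing gate, Cenpe (0.982), Nusap1 (0.736), Rrm2 (0.859), a gene of that gate, and Hist1h2ap (0.807) had ratios below 1, on few UMIs left. The ratio of naive shares was 0.632 when thinned to 1000 UMIs and 0.674 in cells with a Cd4 UMI and no UMI of a set of B, myeloid and CD8 cell markers. The ratio of dividing shares was 25.6 with at least 1000 genes and mitochondrial UMIs under 5%, and had no value without the 2% of cells with the most UMIs, where day 0 had 0 dividing cells (lower limit 3.03). The cause of these shifts was not tested beyond the cells and genes each setting leaves out. The alternatives were run for all T cells and the naive gate, not for the genes named in other gates or without the dividing gate. Of the ratios of named genes under them, 456 stayed inside the interval of the reported ratio, 41 moved outside it and 4 crossed 1. Of the list counts, 1239 stayed within 1.5-fold of the reported count and 169 did not. A gene with 0 UMIs could stand at up to 0.694 CPM over the day 0 pool and 0.226 over the day 4 pool, but at up to 11.9 CPM in the day 0 Foxp3 gate and 13.3 CPM in the day 0 effector/memory gate.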
